A study of Mus musculus with 6 samples.

Results

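Hair shaft keratins and keratin-associated proteins were taken as every protein-coding gene whose symbol begins with Krtap, together with 13 listed hair keratins. This gave 69 of the 55291 genes in the deposited count table, 57 Krtap genes of 27 numbered families and 12 keratins. Krt85 was not analysed here. Dorsal skin was sequenced in 6 samples labelled as day 40 of age, 3 per group, from total RNA depleted of ribosomal RNA. The wild-type group is C57BL/6. The Tsk group is strain B6.Cg-Fbn1Tsk/J, and its labels write the genotype as Fbn1+/-. No treatment was given in the labels for either group. Tsk, tight skin, is an allele of Fbn1, which encodes fibrillin 1, a protein of the microfibrils around elastic fibres, and is known as an internal duplication in that gene. Whether the label means 1 copy of this allele is not stated, and a gene-level count does not tell the alleles apart. The samples are numbered 1 to 3 in wild type and 4 to 6 in Tsk, but nothing in the labels states separate animals, so the p-values below reflect sample-to-sample spread, which may be technical. The skin was used whole, so fewer hair follicle cells of a type and less RNA per cell cannot be told apart.

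The hair shaft is built from keratin filaments of paired acidic (type I) and basic (type II) hair keratins, laid down by cells that leave the matrix of the hair bulb, stop dividing and harden. Keratin-associated proteins fill the space between the filaments and cross-link them. They are grouped by composition into high-sulfur and ultra-high-sulfur proteins, rich in cysteine, and high glycine-tyrosine proteins. In the growing hair the keratins of the lower cortex and cuticle are known to be made first and most keratin-associated proteins higher up, and in the resting phase of the hair cycle shaft production stops.

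Library totals lay between 17561453 and 19219814 counts. Levels are given as CPM, counts scaled to a library total of 1000000 after adjustment by TMM factors, which ran from 0.823 to 1.03 in wild type and from 1.06 to 1.13 in Tsk. A count of 0 allows up to 0.140 to 0.194 CPM, depending on the library, and covers counting error only. Fbn1 stood at 261, 351 and 296 CPM in wild type and at 1450, 2053 and 1781 CPM in Tsk. The skin carried much muscle, and the summed level of 12 skeletal muscle genes was 158888, 287659 and 253678 CPM in wild type against 151673, 135675 and 124842 CPM in Tsk, lower in all 3 Tsk libraries. Ttn was the largest part, with means of 120572 CPM in wild type and 72210 CPM in Tsk. Of the 12 genes, 10 had a log2 fold change below 0 and 2 above it, Myh2 at 1.26 and Myh1 at 0.09. All 12 muscle genes were detected, and the part of muscle content in the results below was not tested. Genes of ribosomal RNA biotypes held 6.11 to 7.81% of counts in wild type against 2.68 to 5.46% in Tsk.

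As a whole, the hair shaft genes were low and did not separate the groups. Against the plain library total they stood at 77.4, 36.1 and 19.2 CPM in wild type replicates 1, 2 and 3, with 95% Wilson intervals of 73.4 to 81.7, 33.5 to 38.9 and 17.3 to 21.3. In Tsk replicates 4, 5 and 6 they stood at 60.0, 31.6 and 44.5 CPM on the same scale, with intervals of 56.5 to 63.7, 29.2 to 34.3 and 41.6 to 47.6. The 3 Tsk values fell inside the wild-type range, and the wild-type libraries differed among themselves more than the groups did. The log2 ratio of the group means was 0.04 on library totals and -0.18 on the TMM-adjusted totals, and without wild type replicate 1 it was 0.72 and 0.34. Within this sum, most hair keratins lay higher in Tsk, while the Krtap genes followed wild type replicate 1.

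**Figure D1:**
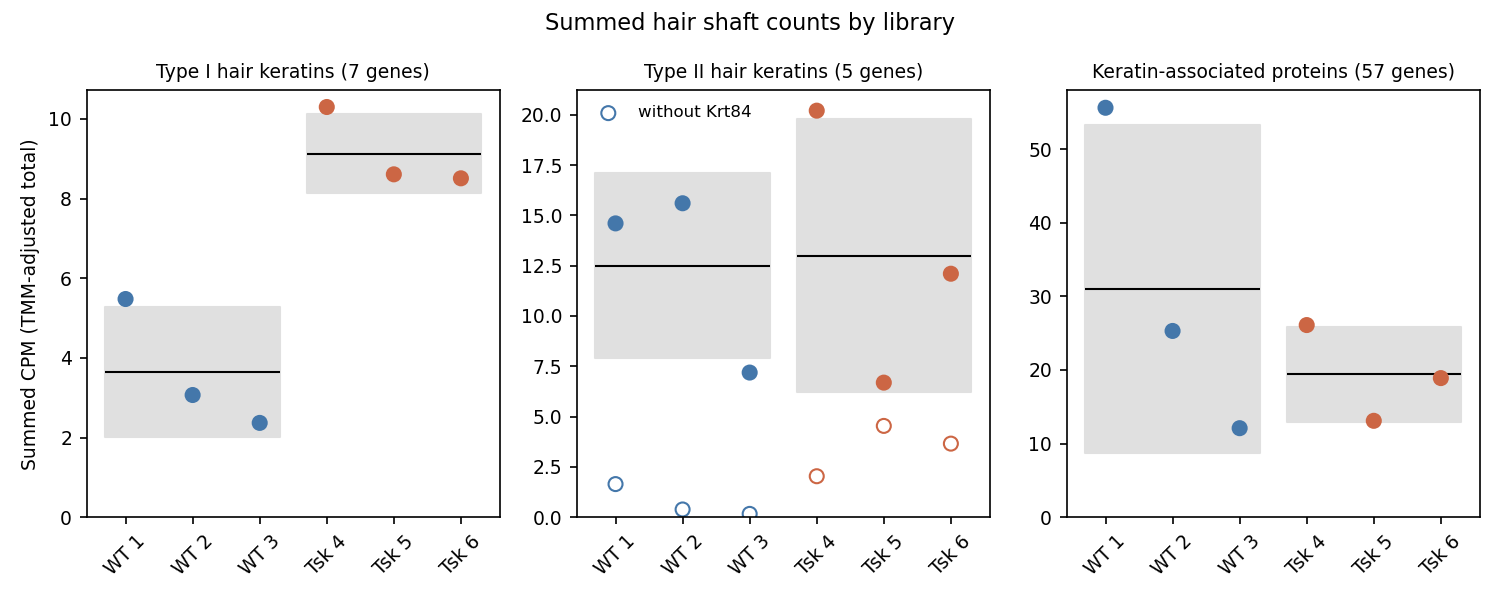
Summed CPM of the 7 type I hair keratins, the 5 type II hair keratins and the 57 Krtap genes in each library (points; blue wild type, orange Tsk), with the group mean (line) and SD (grey band) of the filled points. Type I keratins sat at 2.37 to 5.48 CPM in wild type and 8.51 to 10.3 CPM in Tsk, type II keratins separated only once Krt84 was left out (open points), and the Krtap sum was highest in wild type replicate 1 at 55.6 CPM.

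Counts were few. Krt84 alone held 1157 of the counts summed over the 6 libraries, only 11 members had more than 100, 19 had fewer than 10, and Krtap13, Krtap27-1 and Krtap5-1 had none. Only 23 members, 8 keratins and 15 Krtap genes, passed edgeR's default filter on low counts, and none of the 23 was called changed at an adjusted p under 0.05, where 3.42% of all 19971 genes tested were called. At an unadjusted edgeR p under 0.05 there were 7 of the 23, the keratins Krt34, Krt35, Krt36, Krt81 and Krt83 and the Krtap genes Krtap1-5 and Krtap4-1, against 20.1% of all genes. With no filter, 66 members were tested and 6 were called, against 3.32% of 34809 genes. Higher in Tsk were the type I keratins Krt33b, Krt34 and Krt36, where 2.42% of all genes were called higher. Lower were Krtap5-5, an ultra-high-sulfur protein, Krtap19-9b, a high glycine-tyrosine protein, and Krtap28-13, where 0.899% of all genes were called lower.

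The 100 bases upstream of these 6 genes are shown because they are the members called in edgeR with no filter. Some other settings called other members, given below. Sequences are RefSeq's, on build GRCm38.p6, each printed 5′ to 3′ on the strand of its gene and ending at the base before the RefSeq start, with TATAAA, the letters of a canonical TATA box, in capitals.

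Krt33b, chr11:100029869-100029968, minus strand: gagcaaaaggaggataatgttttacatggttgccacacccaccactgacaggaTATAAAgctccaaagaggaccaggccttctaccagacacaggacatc
Krt34, chr11:100041555-100041654, minus strand: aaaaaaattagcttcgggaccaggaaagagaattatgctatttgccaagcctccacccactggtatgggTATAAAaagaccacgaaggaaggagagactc
Krt36, chr11:100105627-100105726, minus strand: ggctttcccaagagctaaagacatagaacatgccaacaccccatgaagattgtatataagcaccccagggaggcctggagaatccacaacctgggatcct
Krtap5-5, chr7:142229972-142230071, minus strand: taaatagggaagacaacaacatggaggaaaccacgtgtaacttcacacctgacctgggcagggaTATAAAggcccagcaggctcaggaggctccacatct
Krtap19-9b, chr16:88932265-88932364, minus strand: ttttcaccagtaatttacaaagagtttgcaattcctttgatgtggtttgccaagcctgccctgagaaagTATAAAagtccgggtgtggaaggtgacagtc
Krtap28-13, chr1:83060830-83060929, plus strand: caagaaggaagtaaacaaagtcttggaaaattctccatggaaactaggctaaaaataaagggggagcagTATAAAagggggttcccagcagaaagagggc

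All but Krt36 of these 6 windows held TATAAA. Among the 58 members with a RefSeq promoter entry, 45 held these letters on either strand of the 100 bases upstream, 4 of 7 keratins and 41 of 51 Krtap genes. That is 77.6%, against 5.56% of all 32851 promoters of the table. On the printed strand 45 windows had a match, with its first base at a median of -31 from the start, and in 32 of them the match nearest the start began between -36 and -26. Members called higher and members called lower both carried it. The letters CCAAT stood in 39.7% of the members' whole 300-base windows against 37.4% of all, and CTTTGAA or CTTTGAT, forms of the TCF/LEF motif, in 27.6% against 8.65%, each counted on either strand. In the 100 bases upstream alone both were less frequent among members than among all promoters, CCAAT at 15.5% against 18.9% and the TCF/LEF letters at 1.72% against 2.61%. These matches describe the letters in the window and are not measured binding.

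Type I hair keratins were higher in Tsk. They lie together on the minus strand of chromosome 11 (mm10), from Krt33a at 100011195 to Krt36 ending at 100105626. Their summed level was 5.48, 3.07 and 2.37 CPM in wild type and 10.3, 8.61 and 8.51 CPM in Tsk, so the groups did not overlap. The means were 3.64 ± 1.63 and 9.13 ± 0.993 CPM (SD, n = 3 each), a 2.51-fold difference. Without Krt32 they were 1.30 ± 0.759 and 6.19 ± 0.938 CPM, a 4.76-fold difference. Leaving out Krt32, the type I gene with the most counts and the smallest difference, was not planned. Wild type replicate 1 was the highest of its group, and the log2 ratio of the mean sums was 1.33 with it and 1.75 without it.

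Krt36, a keratin known from specialised hard keratin tissue such as tongue papillae and nail besides hair, had 13, 2.6 and 2 counts in wild type against 74.7, 27 and 45.5 in Tsk. In CPM this was 0.723, 0.168 and 0.124 against 3.87, 1.26 and 2.14, every Tsk library above every wild-type one. The log2 fold change was 2.73 ± 0.63 (SE, adjusted p = 0.0570 in edgeR, and 0.0359 with no filter), and 3.90 without wild type replicate 1. Krt34, a cortex keratin, stood at 0.347, 0.258 and 0.0621 CPM in wild type and 1.08, 0.769 and 1.00 CPM in Tsk. Its log2 fold change was 2.05 ± 0.50 (SE, adjusted p = 0.0629 in edgeR, and 0.0347 with no filter). Krt35, which is among the first hair keratins made in the matrix and lower shaft, stood at 0.580, 0.579 and 0.256 CPM against 1.36, 1.42 and 1.16 CPM, a log2 fold change of 1.48 ± 0.37 (SE, adjusted p = 0.0665 in edgeR). Its 3 Tsk values lay close together and apart from wild type.

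Of the 3 type I keratins that the filter removed, Krt33b had 0, 1.2 and 0 counts in wild type against 7.7, 15.7 and 4.6 in Tsk. On rounded group sums of 1 and 28 counts the ratio was 22.4-fold with an exact 95% counting interval of 3.70 to 915, and the edgeR adjusted p with no filter was 0.0272. Here and below, such an interval pools the 3 libraries of a group and covers counting error only, not spread between libraries. It was computed only for members with few counts in 1 group and more in the other, so its lower end does not bound a group effect. Krt33a, its close relative, had 3.3, 1 and 2 counts against 6.6, 22.4 and 10.9, with an edgeR adjusted p of 0.0593 with no filter. Krt31, also a cortex keratin, had 4.4, 1.6 and 0 counts against 4.2, 7.2 and 15, and its groups overlapped. Krt32, a cuticle keratin, had the most counts of the type I genes and the smallest difference, at 3.39, 1.81 and 1.80 CPM in wild type and 3.01, 3.04 and 2.78 CPM in Tsk. Its log2 fold change was 0.32 ± 0.29 (SE, adjusted p = 0.585 in edgeR), and wild type replicate 1 exceeded every Tsk library. Krt32 overlaps Gm11571 on the opposite strand, and the strand setting of the counting is not given in the sources used here.

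Type II hair keratins gave a split picture, because Krt84 made up most of their counts. Their sum was 14.6, 15.6 and 7.19 CPM in wild type and 20.2, 6.69 and 12.1 CPM in Tsk, overlapping. Without Krt84 it was 1.65, 0.389 and 0.170 CPM against 2.04, 4.54 and 3.66 CPM, with means of 0.737 ± 0.800 and 3.42 ± 1.27 CPM (SD, n = 3 each), a 4.64-fold difference with no overlap. The log2 ratio of the means was 2.21, and 3.61 without wild type replicate 1. Leaving out Krt84 was not planned and was chosen after seeing the data. The nearest libraries, wild type replicate 1 and Tsk replicate 4, held 30 and 39 counts without it. The genes lie on chromosome 15 between 101459061 and 101550667 (mm10).

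Krt84, a hard keratin best known from the tongue's filiform papillae and nail, had 233, 235 and 113 counts in the wild-type libraries and 350, 46 and 180 in the Tsk ones, or 11.7 ± 4.24 and 9.59 ± 8.06 CPM (SD, n = 3 each). The groups overlapped and the 3 Tsk values lay far apart, and the log2 fold change was -0.30 ± 0.65 (SE, adjusted p = 0.849 in edgeR), with either sign among the other settings (-1.14 to 0.18). Per kilobase of exon it was the highest member, at 4.45 CPM per kb in wild type and 3.63 in Tsk, followed in wild type by Krtap8-1 at 3.65 and in Tsk by Krtap3-2 at 2.59. In Tsk Krtap8-1 was at 1.80, below Krtap3-1 and Krtap7-1 as well. Krt84 made up 17.1 to 34.6% of all member counts in wild type against 7.56 to 32.1% in Tsk.

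Krt83, a cortex keratin whose human counterpart is mutated in monilethrix, a beaded-hair disorder, had 5.8, 0 and 1.4 counts in wild type against 9.8, 45.7 and 26.1 in Tsk, every Tsk library above wild type. Its log2 fold change was 3.16 ± 0.84 (SE, adjusted p = 0.0802 in edgeR). Krt81, its close relative, had 7.1, 0 and 1.3 counts against 13.3, 23.7 and 19.4, also without overlap, and a log2 fold change of 2.45 ± 0.72 (SE, adjusted p = 0.103 in edgeR). Without wild type replicate 1 the values were 5.12 for Krt83 and 4.58 for Krt81, and over all other settings they ran from 2.59 to 5.12 and from 1.93 to 4.58. Krt86 had 16.8, 6 and 0.1 counts against 16.3, 24.7 and 30.4. Wild type replicate 1 reached the level of Tsk replicate 4, and the log2 fold change was 1.31 ± 0.72 (SE, adjusted p = 0.362 in edgeR). Krt82, a cuticle keratin, was at 0 in every wild-type library and at 0, 3 and 2 counts in Tsk, too few for a comparison. Of the 72 keratin values 42 were not whole numbers within 0.01, as arises when reads are shared between similar genes, so the split among Krt81, Krt83 and Krt86 is uncertain.

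Of the 11 keratins with at least 10 counts, 7 had all 3 Tsk libraries above all 3 wild-type libraries and none had them below, while over 26223 genes with at least 10 counts 12.5% were higher and 9.79% lower in this way. All 12 keratins had a value in the fit with no filter, 11 above 0, with a median log2 fold change of 2.20, or 1.89 with Krt82 at the bound that 3 counts in wild type allow, against -0.02 for all genes. The keratin calls depended on how the libraries were scaled and which were used. With library totals as the scaling, which moved the median of all genes from -0.03 to 0.25, Krt34, Krt35, Krt36, Krt81 and Krt83 passed, where 8.97% of all genes did. Without wild type replicate 1, Krt34, Krt36, Krt81 and Krt83 passed, where 6.72% of all genes did, and without Tsk replicate 5 Krt36 did, where 1.96% of all genes did.

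**Figure D2:**
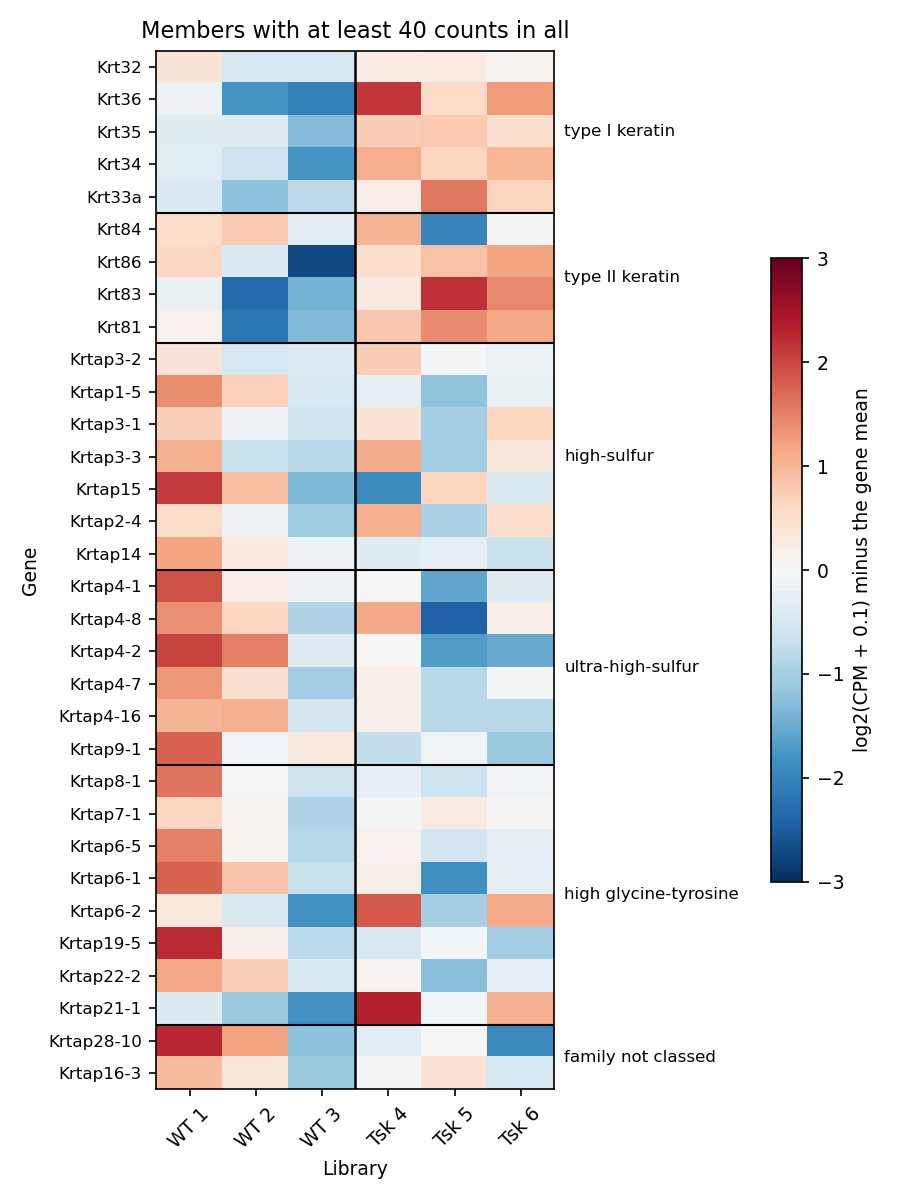
Log2(CPM + 0.1) of the 32 members with at least 40 counts in all, each minus its mean over the 6 libraries (red above, blue below), by class; columns are libraries. Most keratin rows are red in the 3 Tsk columns, and most Krtap rows are reddest in wild type replicate 1.

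Keratin-associated proteins did not separate the groups. Their sum was 55.6, 25.3 and 12.1 CPM in wild type and 26.1, 13.1 and 18.9 CPM in Tsk, with means of 31.0 ± 22.3 and 19.4 ± 6.48 CPM (SD, n = 3 each). The log2 ratio of the means was -0.68, and 0.05 without wild type replicate 1. Of the 39 Krtap genes with at least 10 counts, 28 were highest in wild type replicate 1, where 18.6% of all genes with at least 10 counts were, against 1 of 11 keratins. Of these 39 genes, 27 had the lower mean in Tsk with all libraries and 23 had it without wild type replicate 1.

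Wild type replicate 1 also had the highest summed level of 8 genes of dividing cells, at 170 CPM. The other wild-type libraries stood at 81.2 and 122 CPM and those of Tsk at 105, 75.9 and 92.3 CPM. Mki67, a marker of cycling cells, stood at 80.4 CPM in wild type replicate 1 and at 34.1 to 52.6 CPM elsewhere. Aurkb was instead highest in wild type replicate 3, at 3.98 CPM against 3.45 in replicate 1. All 8 genes were detected and none was called. Wild type replicate 1 likewise had the highest sum of the 8 genes of the outer root sheath and companion layer. It was 4702 CPM against 1917 to 3627 CPM in the other libraries, and all 8 were detected. Krt5 and Krt14 made up most of it, at 2738 and 1309 CPM. Krt16 and Krt17 were instead highest in Tsk replicate 4, and Krt6b in wild type replicate 3. The part of either cell group in the Krtap levels was not tested.

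By composition, high-sulfur Krtap genes summed to 15.7, 7.70 and 4.68 CPM in wild type and 10.5, 5.80 and 8.28 CPM in Tsk. The ultra-high-sulfur genes summed to 14.6, 6.56 and 3.08 CPM against 5.85, 1.59 and 3.60 CPM. The high glycine-tyrosine genes summed to 19.8, 8.06 and 3.88 CPM against 8.86, 4.40 and 6.51 CPM. Each class overlapped between groups, and the log2 ratio of the means was -0.19, -1.13 and -0.68 with all libraries and 0.40, -0.39 and 0.14 without wild type replicate 1. The remaining 11 genes, of families not classed here, had a ratio of -1.70, and -0.91 without that library.

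Among high-sulfur genes, the Krtap3 family overlapped between groups, at 6.84, 3.17 and 2.94 CPM in wild type and 7.31, 3.09 and 5.13 CPM in Tsk. The log2 ratio of the family's means was 0.26, and 0.76 without wild type replicate 1. The most counted Krtap3 gene, Krtap3-2 (chromosome 11, 99555823 to 99556853, mm10), stood at 2.97, 1.57 and 1.71 CPM against 3.83, 2.17 and 2.01 CPM. The log2 fold change was 0.34 ± 0.35 (SE, adjusted p = 0.640 in edgeR), with 0.09 for Krtap3-1 and 0.26 for Krtap3-3. Krtap1-5, in the same gene cluster, stood at 3.84, 2.33 and 0.994 CPM against 1.17, 0.553 and 1.19 CPM. Its log2 fold change was -1.30 ± 0.50 (SE, adjusted p = 0.192 in edgeR), and it was below 0 in all 12 other settings run (-1.66 to -0.74) without passing in any. Krtap15 stood at 2.34, 0.972 and 0.124 CPM against 0.0518, 0.795 and 0.329 CPM. Krtap14, which overlaps Krtap15 on the opposite strand, had 17, 7 and 5 counts against 5, 6 and 4. Krtap11-1, a gene noted here after its values were seen, had all 3 Tsk libraries above wild type, with 1, 0 and 1 counts against 4, 11 and 8, a 9.19-fold ratio on rounded sums of 2 and 23 counts (exact 95% counting interval 2.27 to 80.4). Its edgeR adjusted p with no filter was 0.0944.

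Among ultra-high-sulfur genes, Krtap4-1 stood at 4.64, 1.36 and 1.04 CPM in wild type and 1.15, 0.329 and 0.879 CPM in Tsk. Its log2 fold change was -1.59 ± 0.64 (SE, adjusted p = 0.214 in edgeR), and wild type replicate 1 stood far above the rest, without which it was -0.60. Krtap4-8 stood at 1.27, 0.732 and 0.186 CPM against 1.08, 0 and 0.502 CPM, an overlap. The Krtap5 family on chromosome 7 had 28, 9 and 5 counts in wild type against 0, 5 and 1 in Tsk. Its CPM levels did not overlap, but wild type replicate 3 and Tsk replicate 5 both had 5 counts (0.311 and 0.234 CPM). Their order thus came from the scaling. Most of the family's counts belonged to Krtap5-5, with 17.9, 4.1 and 4 counts against 0, 1 and 0. On rounded sums of 26 and 1 counts this was 32.5-fold lower in Tsk (exact 95% counting interval 5.34 to 1334, edgeR adjusted p with no filter 0.0184). The gene lies at 142228795 to 142229971 on the minus strand of chromosome 7 (mm10).

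Among high glycine-tyrosine genes, Krtap8-1 stood at 4.17, 1.30 and 0.808 CPM in wild type and 1.09, 0.795 and 1.22 CPM in Tsk. Its log2 fold change was -1.03 ± 0.57 (SE, adjusted p = 0.362 in edgeR), and without wild type replicate 1 the log2 ratio of the group means was -0.02. Krtap7-1 had equal means, 1.31 ± 0.691 and 1.32 ± 0.158 CPM (SD, n = 3 each). Krtap6-1 and Krtap6-5 were below 0 (-1.62 ± 0.74 and -0.86 ± 0.61, log2 fold change ± SE) and Krtap6-2 above it (1.63 ± 0.85), none of them called. Without wild type replicate 1 these values were -0.82, 0.18 and 2.47, so the sign of Krtap6-5 rested on that library. Krtap21-1, the member nearest to Krtap6-2 on chromosome 16 and named after its values were seen, had 3, 1 and 0 counts in wild type against 32.5, 5 and 13.8 in Tsk, with no overlap in CPM. Its adjusted p was 0.0721 in edgeR with no filter and 0.0369 in DESeq2.

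The Krtap19 family, 6 genes on chromosome 16 between 88868917 and 88932265 (mm10), was the largest family whose groups did not overlap, at 4.79, 1.62 and 1.06 CPM in wild type and 0.622, 0.762 and 0.471 CPM in Tsk. The means were 2.49 ± 2.01 and 0.618 ± 0.146 CPM (SD, n = 3 each), 4.02-fold lower in Tsk, and the log2 ratio was -2.01, or -1.11 without wild type replicate 1. This family was picked from 27 by its values. The families Krtap5, Krtap14, Krtap20 and Krtap24 also lay lower in Tsk without overlap, and Krtap11 and Krtap21 lay higher. Krtap19-9b had 21, 5 and 8 counts against 3, 0 and 0, a 14.2-fold lower level on rounded sums of 34 and 3 (exact 95% counting interval 4.46 to 72.2). Its adjusted p with no filter was 0.0304 in edgeR and 0.0387 in DESeq2. Krtap28-13 on chromosome 1 had 20.7, 13 and 1 counts against 0, 1 and 1.1, 21.9-fold lower on rounded sums of 35 and 2 (exact 95% counting interval 5.62 to 188). Its adjusted p with no filter was 0.0273 in edgeR and 0.0316 in DESeq2. In wild type replicate 3 it was at 1 count, about the level of the Tsk libraries. The counting interval leaves out this spread between libraries.

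Of the 39 Krtap genes with at least 10 counts, 6 had all Tsk libraries below wild type in CPM (Krtap14, Krtap19-3, Krtap19-9b, Krtap20-2, Krtap28-13 and Krtap5-5) and 2 above (Krtap11-1 and Krtap21-1), set against the 9.79% and 12.5% of all genes given above. In Krtap14 wild type replicate 3 had 5 counts and Tsk replicate 5 had 6, so that order came from the scaling. The nearest libraries had 2 counts in wild type and 1 in Tsk for Krtap20-2, and 1 and 1.1 for Krtap28-13. In the fit with no filter 54 Krtap genes had a value, 38 of them below 0, with a median of -1.12, or -1.17 over the 50 genes left when groups at 0 are set to their bound. DESeq2 gave an adjusted p to 36 members and called 6 of them, where 6.98% of all genes were called. These were Krt36, Krt83 and Krtap21-1 higher and Krtap19-9b, Krtap28-13 and Krtap4-2 lower. Krtap4-2 had 32.8, 19.3 and 4.2 counts in wild type against 7.2, 1 and 1.4 in Tsk.

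**Figure D3:**
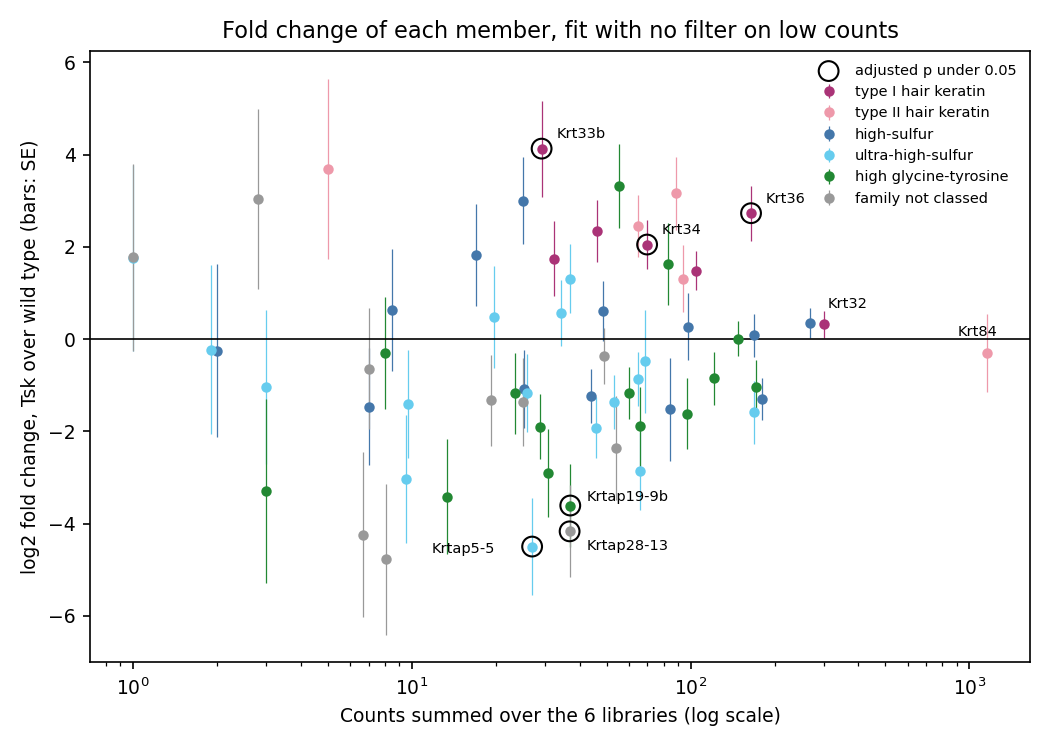
Log2 fold change (Tsk over wild type, edgeR fit with no filter, bars SE) of the 66 members with a count against counts summed over the 6 libraries (log scale), coloured by class; black circles mark the 6 called members. The circled keratins Krt33b, Krt34 and Krt36 lie above 0 and the circled Krtap genes below, all 6 at fewer than 200 counts, while Krt84 and Krt32, the most counted members, lie near 0.

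Krtap counts per hair keratin count did not overlap between the groups. There were 2.76, 1.35 and 1.27 Krtap counts per hair keratin count in wild type replicates 1, 2 and 3 and 0.856, 0.858 and 0.916 in Tsk replicates 4, 5 and 6. The ratio needs no scaling between libraries, and every Tsk library lay below every wild-type one. Per type I keratin count it was 10.1, 8.24 and 5.12 against 2.54, 1.52 and 2.22, and with Krt84 left out of the keratins 7.79, 7.31 and 4.78 against 2.12, 0.998 and 1.55. Wild type replicate 1 was highest in all 3 forms, but replicates 2 and 3 also lay above each Tsk library in each of them. No p is given, since the members were chosen with results of these data known. The ratio was not among the planned results, and leaving out Krt84 was chosen after seeing the data. The ratio sets the keratin and Krtap sums above against each other and is not separate evidence.

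**Figure D4:**
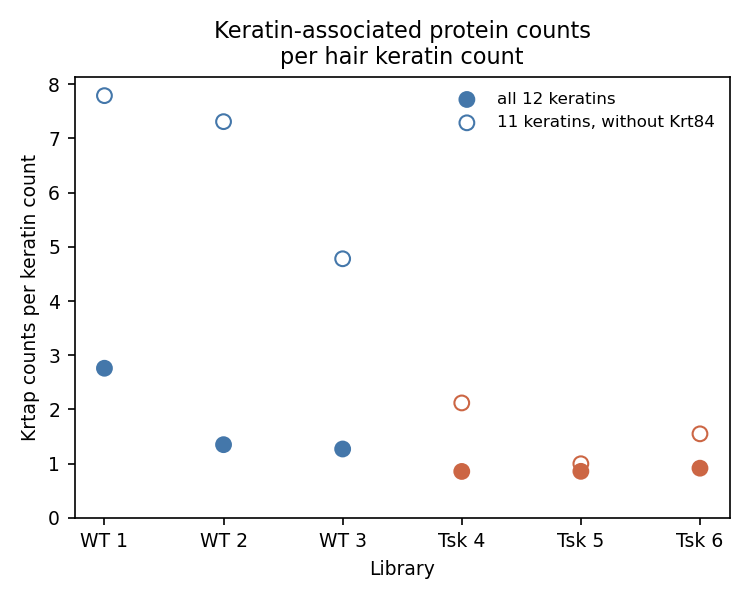
Krtap counts per hair keratin count in each library (filled points, all 12 keratins; open points, without Krt84; blue wild type, orange Tsk). Filled points lie at 1.27 to 2.76 in wild type and 0.856 to 0.916 in Tsk, and open points at 4.78 to 7.79 and 0.998 to 2.12.

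Other genes of the follicle were read from the same fit. Krt87, a type II hair keratin outside the rule (chromosome 15, 101431038 to 101438804, mm10), was at 3.3, 1 and 1.3 counts in the wild-type libraries and at 36.7, 41.4 and 26.6 in those of Tsk. It rose with a log2 fold change of 3.99 ± 0.47 (SE, adjusted p = 0.00748 in edgeR), and passed in 5 of the 6 fits that left out 1 library (0.0524 without wild type replicate 3). Most of its counts were not whole, so its share of reads from similar genes is uncertain, as for Krt81, Krt83 and Krt86. Of 10 other shaft genes 7 were tested and none was called, and the sum of all 10 was 42.8, 31.6 and 31.7 CPM in wild type and 46.9, 49.6 and 43.2 CPM in Tsk. Dsg4, a desmosomal cadherin of the shaft, had a log2 fold change of 0.72 ± 0.29 (SE, adjusted p = 0.204 in edgeR). Selenbp1 and Hephl1, the most abundant of them, had values of 0.53 ± 0.22 and 0.09 ± 0.21.

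Over all genes 3.42% were called. Of 15 tested regulators of the hair matrix, 3 rose and none fell. These were Prdm1, a transcriptional repressor (1.52 ± 0.18, log2 fold change ± SE), the homeobox gene Dlx3 (1.87 ± 0.29) and Lef1, a transcription factor of the Wnt pathway (1.11 ± 0.21). Their edgeR adjusted p were 0.00748, 0.0159 and 0.0286, and of the 6 fits that left out 1 library Prdm1 and Dlx3 passed in 5, all but that without wild type replicate 3, and Lef1 passed in 1. Hoxc13, which is known to switch on hair keratin genes, stood at 6.18, 3.56 and 3.67 CPM against 9.59, 5.24 and 7.20 CPM with an adjusted p of 0.223, and Foxn1 had an adjusted p of 0.700. Of 8 tested genes of the inner root sheath, the sleeve around the growing shaft, 3 rose and none fell, against the same 3.42%. The 3 were Krt25, Krt27 and Krt71, which passed in 5, 2 and 1 of those 6 fits. Krt71 also missed the threshold in edgeR with no filter (adjusted p = 0.178) and in DESeq2 (0.0624), and Krt27 in limma-voom (0.0750). The sum of the 10 listed sheath genes overlapped between groups, at 180, 173 and 127 CPM against 184, 167 and 146 CPM. Gata3 and Tchh made up most of it, with means of 108 and 46.3 CPM in wild type and 105 and 41.4 CPM in Tsk. The sum therefore says little about the sheath keratins. Of 12 melanocyte genes 7 were tested and none was called, and the sum of all 12 was 14.1, 13.7 and 12.6 CPM in wild type and 18.6, 27.2 and 19.8 CPM in Tsk. Dct and Kit, the most abundant, had log2 fold changes of 0.98 ± 0.24 and 1.01 ± 0.27.

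Calls in the remaining lists are set against the 3.42% called over all 19971 genes tested. Of 10 bulge and resting-phase genes Cd34, Tcf7l1 and Bmp6 rose and Krt24 fell, of 12 dermal papilla genes Corin rose, and of 5 growth arrest signals none was called. Of 6 epidermal genes Lor rose, of 8 sebaceous genes Fads2 rose, and of the 8 outer root sheath and 12 muscle genes none was called. Of 12 adipocyte genes Lep, Cfd and Cebpa rose, but not in edgeR with no filter (adjusted p = 0.193, 0.233 and 0.0623), and their list summed to 3053, 4653 and 4009 CPM in wild type and 3465, 7127 and 3012 CPM in Tsk, with Tsk replicate 5 far above the rest. Leaving out 1 library at a time, Corin passed in all 6 fits, Lor in 5, Fads2 in 4, Cd34, Lep and Cfd in 3, Cebpa in 2, Tcf7l1 and Bmp6 in 1 and Krt24 in none.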

How the data were processed

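Ribosomal RNA-depleted total RNA of dorsal skin was sequenced in 6 samples, per the labels. The authors deposited estimated counts per gene, and the submitters' processing notes list bcl2fastq 2.19.1.403, STAR, Partek 7.0 and build mm10. The sources used here do not name the gene models or how shared reads were counted. In all 69 members the span matched GENCODE M21 once the deposited end was reduced by 1. The deposited CPM, TMM and TPM values were not used.

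Expected counts were rounded to whole numbers for testing, values under 0.01 were shown as 0, and 142 of the 414 member values were not whole. edgeR 4.0.16 in R 4.3.3 was fitted across all genes (quasi-likelihood F-test, robust, TMM, default filter with minimum count 10 and minimum total 15, Benjamini-Hochberg adjusted p under 0.05), and the members' values were read from it. On simulated counts of 19631 genes for this comparison, 43.6% of genes changed 2-fold and 92.5% of those changed 4-fold were recovered, and 6.71% of calls were false. The changed genes were drawn at random from all genes that passed the filter. These rates therefore need not hold for the members, whose counts were few. Sums over members have no test. Alternatives were other scalings and filters, DESeq2 1.42.0, limma-voom 3.58.1, and leaving out each library. The text names every keratin of the rule and the 12 Krtap genes with the most counts. Of 16 lists it names the genes past the threshold or the most abundant. Some other genes, among them Dsg4, Hoxc13 and Foxn1, are named outside this rule. Krtap classes follow family numbers, since no protein table was used to class them by residues as planned. Members and lists were chosen with earlier results of these data known.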

Additional observations from a re-analysis of the deposited data

How the results depend on the processing

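Over all genes, 683 were called (544 higher, 139 lower), 1791 with library totals as the scaling (1695 higher, 96 lower), 1157 with no filter, 1533 with DESeq2, and 63 to 1381 when 1 library was left out, the lowest without wild type replicate 3 and the highest without wild type replicate 1. With the default filter and TMM no member was called, 5 were with library totals, 6 with no filter, 6 with DESeq2 and 0 to 4 when 1 library was left out (1 without Tsk replicate 5, 4 without wild type replicate 1). The cause was not tested. Median-of-ratios factors, limma-voom and a minimum of 10 counts in 3 libraries called no member. The log2 ratio of the members' share of counts was 0.04 and ran from -0.32 to 0.72 when 1 library was left out, and was -0.47 for Krtap genes alone and 0.71 for keratins alone. Without Krt84, an alternative chosen after seeing the data, it was 0.06. Krtap28-13 was kept by the filter in 4 fits that left out 1 library and passed in none. No paired analysis was possible because the wild-type and Tsk samples share no replicate numbers. With 349 to 1360 member counts per library, depth limits most single genes.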
